A study of Mus musculus with 6 samples.

Results

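The genes described here encode the machinery that copies DNA during S phase of the cell cycle. The members were chosen by function, with earlier results of these data known. They are 43 named genes of origin licensing, the replicative helicase, the polymerases, the sliding clamp, nucleotide supply and nascent chromatin. Of these, 41 had at least 1 probe set whose platform annotation named that gene alone, among 12393 genes measured in all. Rnaseh2a and Chaf1a had none and were not analysed here. A gene with several probe sets was represented by the one with the highest mean over all samples.

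Expression was measured with 1 Affymetrix Mouse430a array per sample in CD4+CD25+ T cells from mice of C57BL6 background. Sorting on these surface proteins is a usual way to collect regulatory T cells, which restrain immune responses. The control group was 3 wild type samples. The other group was 3 samples whose genotype label reads HDAC3-fl/fl_FOXP3cre, in which a Cre recombinase named for Foxp3, the lineage factor of regulatory T cells, acts on floxed Hdac3, a histone deacetylase gene. They are called Hdac3 deleted here. Such a Cre acts where Foxp3 is expressed, so a cell in the preparation that never expressed Foxp3 may keep the floxed gene intact. A further label field of these samples names HDAC11 and another reads HDACII, while titles and genotypes name HDAC3. Ages, and whether the wild type mice carried a Cre, are not given in the sources used here. No label states that the samples are different mice, so the p-values here reflect just how far these samples scatter, which may be technical. The comparison asks which genes differ in expression when Hdac3 is deleted.

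As background, replication starts when the origin recognition complex loads the MCM helicase with the help of Cdc6 and Cdt1. Kinases that include cyclin E with its partner kinase then turn the loaded helicase on, and Cdc45 joins it to form the moving fork. Polymerases extend primers on both strands, held to DNA by the PCNA ring, while ribonucleotide reductase and thymidine kinase supply the building blocks. Many of these genes are transcribed at the start of S phase under E2F transcription factors, so their messenger levels are widely read as a sign of cycling cells.

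The letters bound by E2F factors occur before the start sites of some members. The stretches printed here show the E2F motif in the 6 members with the largest called rises among those that carry it. Orc1 is among the 6, but its signal lay within that of bacterial control probe sets in both groups, so its call has no readable direction. The window searched was the 250 bases before the start site in the RefSeq promoter table (GRCm38.p6), on both strands, for TTTCCCGC, TTTCGCGC, TTTGCCGC or TTTGGCGC, and each line gives 30 bases on the gene's own strand, 5′ to 3′, with the motif or its reverse complement in capitals.
Cdc6, chr11:98908002-98908031, plus strand: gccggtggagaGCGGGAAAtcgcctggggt
Uhrf1, chr17:56304117-56304146, plus strand: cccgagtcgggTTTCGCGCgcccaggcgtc
Pola1, chrX:93632275-93632304, minus strand: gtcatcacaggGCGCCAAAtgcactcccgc
Orc1, chr4:108579416-108579445, plus strand: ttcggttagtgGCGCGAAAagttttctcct
Mcm5, chr8:75109347-75109376, plus strand: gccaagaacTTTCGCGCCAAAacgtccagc
Mcm7, chr5:138172030-138172059, minus strand: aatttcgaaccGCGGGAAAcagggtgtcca

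In Mcm5 the capitals hold a pair of overlapping motifs, one on each strand. The motif began 138 bases before the start site in Cdc6 and in Pola1, 27 bases before it in Orc1 and 185 bases before 1 start site of Uhrf1. A gene with several start sites counted as carrying the motif if any of its windows did. In Uhrf1 and Mcm7 the window of another start site lacked it. All but the Mcm5 stretch lie inside the extent that RefSeq gives the gene over all its transcripts, and the Mcm7 stretch lies inside that of its neighbour Ap4m1 as well. Of the 37 members in the table, 8 carried the motif (21.6%), against 3.37% of the 9887 array genes in the table and 2.16% of all its 27025 genes. A similar share was seen in further replication factors outside the members, where 5 of the 26 in the table carried it (19.2%). The motif is thus not particular to the members. The motif was found in 6 of 24 members that were called higher and in 2 of 11 measured members that were not, Mcm6 and Rfc3. The 24 include Orc1 and Tyms, which had no readable level in either group, and Orc1 is among the 6 as well. The CCAAT box, the letters CCAAT on either strand, was present in 24 of the 37 members (64.9%) and in 39.9% of array genes. A match is a description of these letters and shows no binding.

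The Hdac3 deleted samples carried transcripts of cell types that their label does not name. Array medians were 6.28 to 6.29 in wild type against 6.43 to 6.47 in Hdac3 deleted samples, and arrays correlated at 0.921 to 0.923 between groups and at least 0.996 within them. Signal between 2.37 and 5.16 (log2) is called the background range here, since 27 bacterial control probe sets spanned it. Hdac3, the targeted gene, fell by 0.55 (log2, Hdac3 deleted minus wild type, here and throughout), from 9.04 ± 0.028 (SD, n = 3) to 8.49 ± 0.024 (limma adjusted p = 7.45e-05), and the position of its probe set relative to the floxed exons is not known here. Cd247, Cd3g, Cd3e and Cd3d, the CD3 chains that mark T cells, fell by 1.59, 1.56, 1.51 and 1.21. All 6 measured further T cell markers fell, with Cd4 down by 1.02, and of 2 CD8 markers Cd8b1 fell by 1.12 and Cd8a was not called. Of the regulatory T cell markers Il2ra rose by 0.71, Izumo1r, Ikzf2, Tnfrsf18, Nrp1 and Tnfrsf4 fell by 2.03, 1.58, 0.86, 0.47 and 0.30 (Tnfrsf4 was not called with cyclic loess, at -0.08), Ctla4 was not called (0.07), and Foxp3 lay at background in both groups (3.77 and 3.68). All 14 monocyte and macrophage markers rose, with a summed log2 level of 69.2 to 70.8 in wild type, where 9 lay inside the background range, and of 164.2 to 164.9 in Hdac3 deleted samples, and Csf1r rose by 7.54. All 12 measured neutrophil and neutrophil precursor markers rose, from a summed level of 53.2 to 57.8 to one of 133.6 to 133.7. Mpo, an enzyme made in granulocyte precursors, was at least 163-fold higher. Plasma cell markers rose in 4 of 5, with Jchain up by 2.50 (summed level 33.6 to 33.8 and 38.5 to 38.6). B cell markers rose in 3 of 6 (33.2 to 33.8 and 39.6 to 39.8), dendritic cell markers in 3 of 5 (23.3 to 23.9 and 33.5 to 34.3) and natural killer cell markers in 3 of 5 (21.8 to 22.6 and 24.7 to 25.1). Over all genes 22.4% rose. No other marker of these lists was called, and Cd79a of the B cell list differed by -0.26. Among those called, Cd22 (B cell) rose by 2.45 and Itgax (dendritic cell) by 4.29. Blnk (B cell), Batf3 (dendritic cell) and Klrk1 (natural killer cell) were at least 6.05-fold, 36.7-fold and 1.41-fold higher. At background in both groups were 1 plasma cell, 2 B cell, 2 dendritic cell and 2 natural killer cell markers, with Zbtb46 and Ncr1 among them. Of 9 erythroid markers 3 rose, 1 fell and the other 5 lay at background in both groups (44.4 to 45.1 and 45.5 to 47.8). In RNA from whole preparations, more or fewer cells of a type and more or less RNA per cell cannot be told apart.

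The replication genes of this list were mostly higher in the Hdac3 deleted samples, by modest amounts. That does not extend to all replication genes: of 26 further factors, given below, 9 were higher and 11 lower. Of the 41 measured members, 29 were higher (70.7%) at a limma adjusted p under 0.05 over all genes, beside 22.4% of all genes. Only 4 were lower (9.76%), beside 38.8% of all genes, and 8 were not called. The fitted rise was at least 2-fold in 10 members (24.4%), beside 9.04% of all genes. It was so in 9 when group means inside the background range were set to its top, which leaves out Ccne2, and in 6 with median centring. No member was 2-fold lower, beside 4.46% of all genes, and the count was also 0 at an unadjusted p under 0.05 and with the methods' t-test. With median centring it was 1, Rpa3, while the count over all genes went from 553 to 867. The members had a median difference of 0.38, and the median over all genes was -0.17. A difference above the members' median was seen in 17.3% of all genes. Only Rrm2 lay above the 95th percentile of all genes, which was 1.80. The part of the monocyte and neutrophil transcripts of the same samples in these counts was not tested.

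The direction of small differences depended on the scaling of the arrays. Of all called genes 36.6% were higher on the deposited scale, 23.3% after median centring of each array and 56.1% after cyclic loess, and the median over all genes was -0.33 and 0.00 on those scales. The members' median was 0.22 and 0.56 there, with 24 and 34 members higher and 6 and 2 lower. Of all genes 17.8% were higher and 58.3% lower with median centring, and 30% and 23.5% with cyclic loess. Orc1 and Tyms lay at background in both groups, so 2 of the 29 calls have no readable direction.

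**Figure D1:**
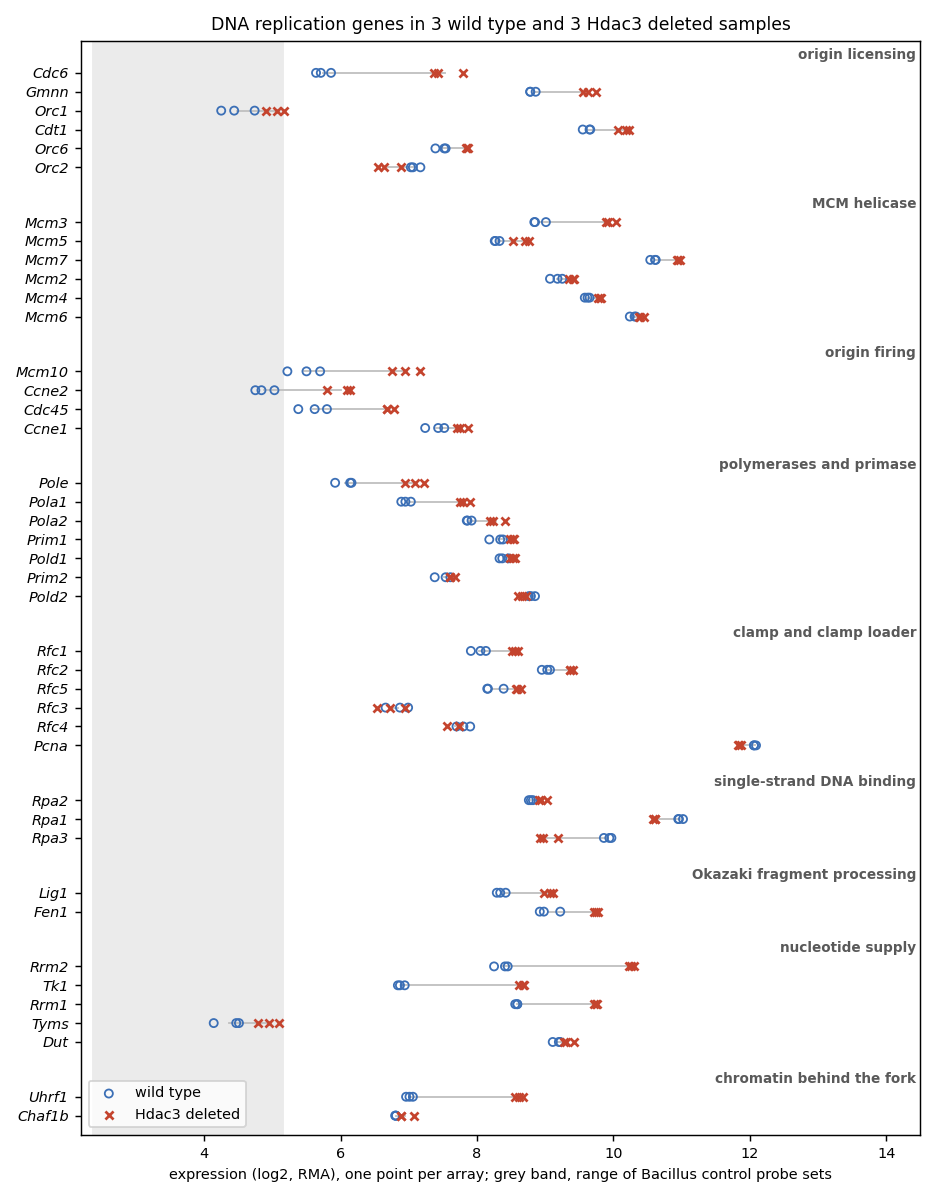
Expression (log2) of the 41 measured replication genes, grouped by role, with 1 point per array: open circles for the 3 wild type samples, crosses for the 3 Hdac3 deleted samples, and a line between the group means. The grey band is the background range of 2.37 to 5.16, and the crosses of Rrm2, Tk1, Cdc6 and Uhrf1 stand well to the right of their circles.

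Rrm2, a gene of nucleotide supply, showed the largest rise of any member, and Rrm1 and Tk1 of the same role rose more than 2-fold as well. Ribonucleotide reductase turns ribonucleotides into deoxyribonucleotides, and its small subunit gene Rrm2 read 8.45, 8.41 and 8.25 in wild type against 10.23, 10.26 and 10.30 in Hdac3 deleted samples. The groups did not overlap, and Rrm2 was higher by 1.89 ± 0.068 (SE, n = 3 per group), or 3.72-fold (limma adjusted p = 7.55e-07). The large subunit gene Rrm1 went from 8.59, 8.59 and 8.56 to 9.71, 9.75 and 9.76. That is a rise of 1.16, 2.24-fold (limma adjusted p = 1.69e-06), with no overlap between groups. Tk1, thymidine kinase of the salvage pathway, measured 6.94, 6.87 and 6.84 in wild type against 8.61, 8.68 and 8.69 in Hdac3 deleted samples. Its rise of 1.78, 3.43-fold, had the smallest adjusted p of any member (4.01e-07, limma). Dut, which removes dUTP so that uracil is not built into DNA, differed by 0.16 (adjusted p = 0.0602, interval 0.01 to 0.31). A second Dut probe set fell by 0.55, to 4.79, inside the background range. Tyms, thymidylate synthase, lay inside that range at 4.37 ± 0.204 (SD, n = 3) and 4.95 ± 0.152. A further probe set shared by Tyms and a pseudogene was left out because it names more than 1 gene.

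Origin licensing genes rose unevenly. Cdc6, which loads the helicase at origins, read 5.86, 5.71 and 5.64 in wild type against 7.37, 7.79 and 7.43 in Hdac3 deleted samples. The rise of 1.79 (SE 0.12, 3.47-fold, limma adjusted p = 1.78e-05) came with a wider spread in the Hdac3 deleted samples (SD 0.231) than in wild type (0.112). Cdt1, the other loading factor, rose by 0.54, from 9.62 to 10.16. Gmnn encodes geminin, the protein that holds Cdt1 back after origins have fired, and it rose by 0.83, from 8.78, 8.86 and 8.78 to 9.62, 9.74 and 9.56. The loading factor and its inhibitor thus both rose, and neither reached 2-fold. Among the subunits of the origin recognition complex, Orc6 rose by 0.37 and Orc2 fell by 0.40. Orc2 measured 7.17, 7.03 and 7.06 against 6.88, 6.64 and 6.55 (limma adjusted p = 0.00916), and relative to the median of all genes its difference was -0.23. It was not called with cyclic loess (-0.22, adjusted p = 0.0916), and its 2 other probe sets, at -0.08 and -0.27, were not called.

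The 6 subunits of the MCM helicase, which form one ring around DNA, differed by very different amounts. Mcm3 read 8.84, 8.85 and 9.01 in wild type against 9.89, 10.04 and 9.92 in Hdac3 deleted samples, a rise of 1.05 (95% interval 0.87 to 1.22, limma adjusted p = 1.93e-05). Mcm5 went from 8.27, 8.26 and 8.33 to 8.70, 8.76 and 8.53, and Mcm7 from 10.62, 10.54 and 10.61 to 10.98, 10.93 and 10.94. These are rises of 0.38 and 0.36 with no overlap, and Mcm2 and Mcm4 rose by 0.23 and 0.18. Mcm6 measured 10.24, 10.33 and 10.31 against 10.39, 10.45 and 10.38, a difference of 0.11 (interval -0.02 to 0.24, adjusted p = 0.111). The groups of Mcm6 did not overlap but the difference was not called. The interval of Mcm3 lay above the intervals of all other 5 subunits, although its own 5 probe sets ran from 0.44 to 1.05, all of them called higher. The calls of Mcm2 and Mcm4 were lost when some of the arrays were left out in turn. Without Hdac3 deleted replicate 2 or 3 the limma adjusted p was 0.0554 and 0.0563 for Mcm2 and 0.0569 and 0.0538 for Mcm4. It was 0.0501 for Mcm4 without wild type replicate 1. With median centring the differences of Mcm2 and Mcm4 were 0.07 and 0.02 and neither was called. The second probe sets of Mcm2 and Mcm4, at 0.12 and 0.23, were not called (limma adjusted p = 0.161 and 0.059 over all probe sets).

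Genes of origin firing all rose. Mcm10, which helps convert the loaded helicase into a moving fork, went from 5.22, 5.70 and 5.50 to 7.16, 6.95 and 6.76, higher by 1.48 (SE 0.15, 2.80-fold, limma adjusted p = 0.000114). A second Mcm10 probe set went the other way, by -0.29, but lay at background in both groups. Cdc45, a core part of the active helicase, read 5.62, 5.38 and 5.80 in wild type against 6.79, 6.68 and 6.68 in Hdac3 deleted samples, a rise of 1.12. Both genes sat close above the background range in wild type. The E cyclins drive the entry into S phase. Ccne2 read 4.75, 4.84 and 5.03 in wild type, inside the background range. The Hdac3 deleted samples read 5.80, 6.14 and 6.09, which by the top of that range is at least 1.81-fold higher (limma adjusted p = 0.000115). Ccne1 rose less, by 0.38, from 7.40 ± 0.144 (SD, n = 3) to 7.78 ± 0.086, and was not called with median centring (0.22, adjusted p = 0.0505).

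Of the 7 polymerase and primase genes 4 rose and 3 were not called. Pole, the catalytic subunit of the leading strand polymerase epsilon, read 6.14, 6.16 and 5.92 in wild type against 6.95, 7.09 and 7.22 in Hdac3 deleted samples, a rise of 1.01 (2.02-fold, limma adjusted p = 9.6e-05). Pola1, the catalytic subunit of polymerase alpha, rose by 0.86, from 6.89, 6.95 and 7.03 to 7.75, 7.80 and 7.90. Its partner subunit Pola2 rose by 0.40. The primase subunits, which lay down RNA primers, moved little: Prim1 was higher by 0.22 (limma adjusted p = 0.0294), and Prim2 differed by 0.12 (interval -0.05 to 0.29) with overlapping groups. The Prim1 call was lost without wild type replicate 1 (adjusted p = 0.0624) and without Hdac3 deleted replicate 1, 2 or 3 (0.0563, 0.0766 and 0.0766). Polymerase delta, which works on the lagging strand, was represented by Pold1 at 0.14 and Pold2 at -0.14 (adjusted p = 0.0687 and 0.0693). Neither was called, their groups did not overlap, and Pold1 was called higher with cyclic loess (0.32) and Pold2 lower with median centring (-0.30).

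**Figure D2:**
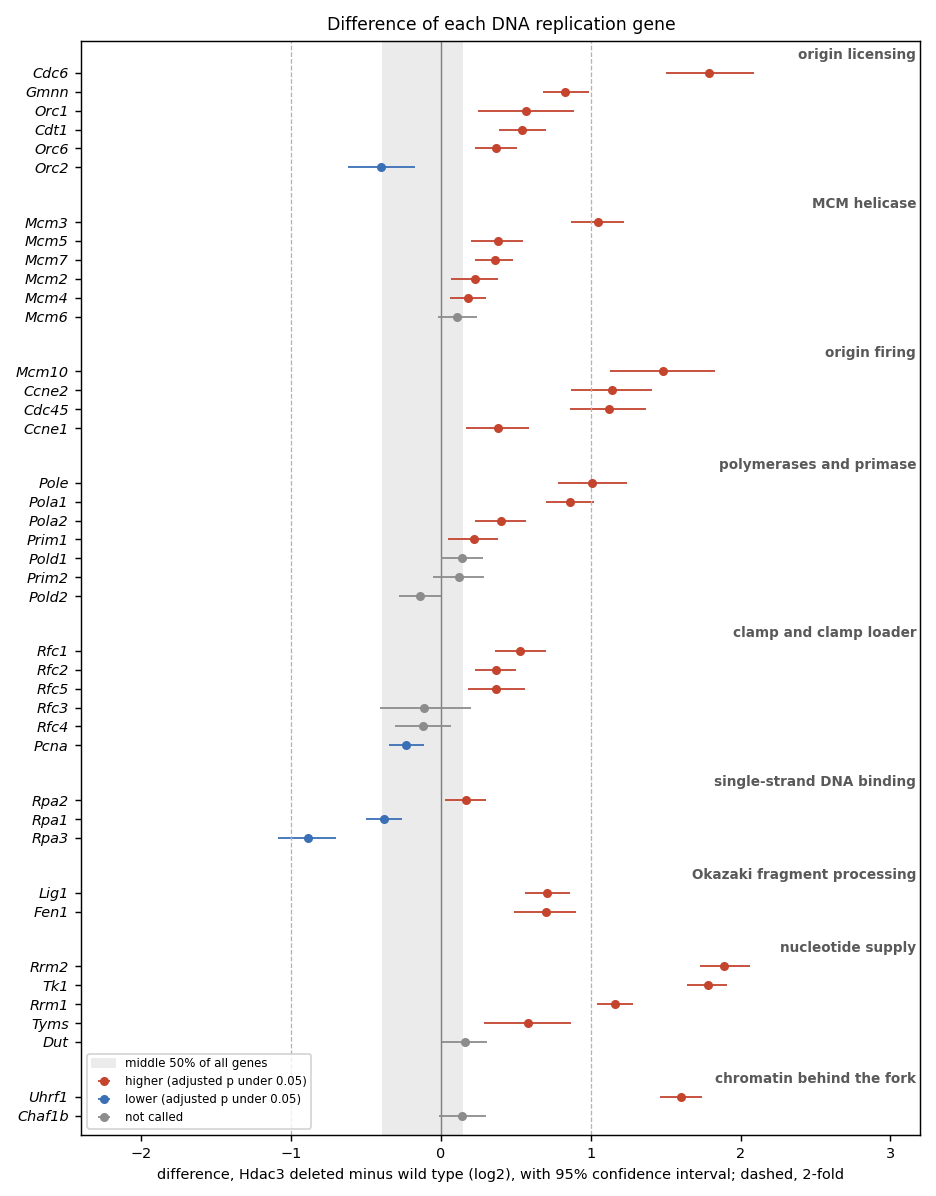
Difference in expression (log2, Hdac3 deleted minus wild type) of each measured replication gene with its 95% confidence interval, grouped by role. Red marks genes called higher, blue the 4 called lower (Rpa3, Orc2, Rpa1 and Pcna) and grey the 8 not called. The grey band is the middle 50% of all genes, from -0.39 to 0.14, and dashed lines mark 2-fold.

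The clamp gene Pcna and the single-strand binding genes Rpa1 and Rpa3 were called lower. Pcna encodes the ring that tethers polymerases to DNA and is often used as a marker of S phase. It read 12.09, 12.06 and 12.06 in wild type against 11.87, 11.82 and 11.84 in Hdac3 deleted samples, lower by 0.23 (SE 0.049, limma adjusted p = 0.00602) with no overlap. Relative to the median of all genes that is -0.06, and with cyclic loess it was -0.01 (adjusted p = 0.921), so Pcna has no settled direction. The clamp loader opens the ring, and its 5 subunit genes were divided. Rfc1 rose by 0.53, and Rfc2 and Rfc5 by 0.37 each. Rfc3 and Rfc4 differed by -0.11 (interval -0.41 to 0.20) and -0.12 (interval -0.31 to 0.07), with overlapping groups. A second Rfc3 probe set was lower, at -0.33 (limma adjusted p = 0.0122 over all probe sets), with no overlap. Of the 3 Rfc1 probe sets, 2 were higher (0.53 and 0.45) and the third, at -0.13, was not called.

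Replication protein A coats single-stranded DNA at the fork as a complex of 3 subunits. Rpa3 showed the largest fall among the members, from 9.86, 9.94 and 9.97 to 8.93, 9.19 and 8.97. The difference was -0.89 (95% interval -1.09 to -0.70, limma adjusted p = 7.51e-05). Cyclic loess gave -0.70 and median centring -1.05. Rpa1 fell by 0.38, from 10.96, 10.95 and 11.02 to 10.61, 10.61 and 10.58, and its second probe set fell by 0.52. Rpa2 was higher by 0.17 (limma adjusted p = 0.0396), a call lost without any 1 of the 6 samples (adjusted p = 0.0562 to 0.115). Relative to the median of all genes Rpa3 was at -0.72 and Rpa1 at -0.21.

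Genes of Okazaki fragment processing and of nascent chromatin were higher where called. Fen1, the nuclease that trims the flap of each lagging strand fragment, rose by 0.70, from 9.22, 8.92 and 8.98 to 9.74, 9.72 and 9.77. Lig1, the ligase that seals the fragments, rose by 0.71, from 8.29, 8.34 and 8.42 to 9.12, 8.98 and 9.07. Neither gene's groups overlapped, and a second Fen1 probe set rose by 0.76. Uhrf1 recruits the maintenance DNA methyltransferase to newly copied DNA. It read 7.06, 6.96 and 7.01 in wild type against 8.62, 8.67 and 8.55 in Hdac3 deleted samples, higher by 1.60 (SE 0.058, 3.04-fold, limma adjusted p = 8.11e-07). Chaf1b, a subunit of the histone chaperone that loads histones behind the fork, differed by 0.14 (interval -0.01 to 0.30, adjusted p = 0.0997) and was called higher with cyclic loess (0.32).

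By role the median difference was 1.16 for nucleotide supply (4 of 5 called higher), 1.13 for origin firing (4 of 4), 0.56 for origin licensing (5 of 6), 0.29 for the MCM helicase (5 of 6), 0.22 for polymerases and primase (4 of 7) and 0.13 for the clamp and its loader (3 of 6). It was -0.38 for the single-strand binding proteins, where 1 of 3 was higher and 2 were lower. Beside these counts, 22.4% of all genes were higher and 38.8% lower. The origin firing median was 0.99 when the wild type mean of Ccne2 was set to the top of the background range. The counts of higher genes include Orc1 in origin licensing and Tyms in nucleotide supply, which lay at background in both groups. Replicates agreed closely throughout, with a median SD over the members of 0.073 in wild type against 0.065 in Hdac3 deleted samples. The largest SD was 0.249, in Orc1.

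Several members could be read from more than 1 probe set. The 41 members had 74 probe sets, and 23 members had more than 1. Of the 33 probe sets that were not used, 14 were called higher and 4 lower, over all probe sets, and 19 had the same call as the one used. All probe sets were called higher for 6 of the 23, namely Rrm1, Rrm2, Mcm3, Fen1, Prim1 and Uhrf1. Mcm10 was the 1 gene with opposite calls, as given above.

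**Figure D3:**
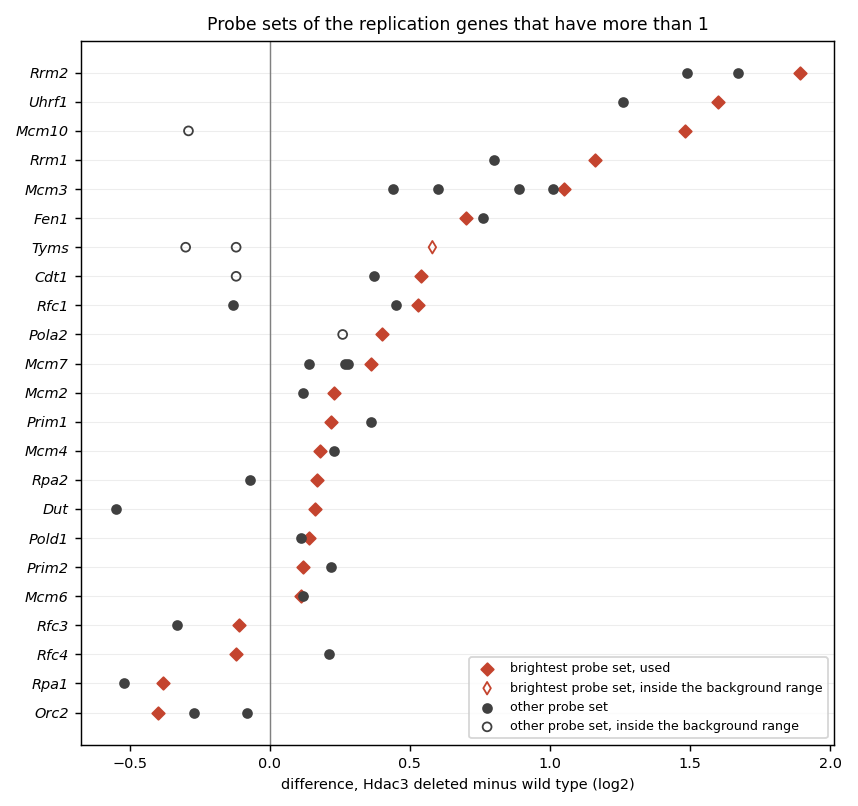
Difference (log2, Hdac3 deleted minus wild type) of every probe set of the 23 replication genes that have more than 1. Diamonds are the brightest probe set, which stands for the gene, and circles the others, with open symbols for those at background in both groups. All probe sets of Rrm2, Uhrf1, Rrm1 and Mcm3 lie right of 0, while those of Mcm10, Tyms, Cdt1, Rfc1, Rpa2, Dut and Rfc4 fall on both sides.

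Other genes of the pathway moved in both directions. Among 26 measured further replication factors 9 were higher (34.6%, beside 22.4% of all genes), 11 lower (42.3%, beside 38.8%) and 6 not called. Their median of -0.15 was close to the -0.17 of all genes. Gins1, a subunit of the active helicase, and Wdhd1, which ties the helicase to polymerase alpha, rose by 1.35 and 1.24. Pole4, a small subunit of polymerase epsilon, fell by 1.36, and Donson, a factor of origin firing, fell by 0.93. With cyclic loess 10 were higher and 8 lower (median 0.02), and with median centring 8 and 16 (median -0.32), so the sign of this list's median depends on the scaling.

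Several regulators of S phase entry rose by large amounts. Of 16 measured, 9 were higher (56.2%, beside 22.4% of all genes) and 6 lower (37.5%, close to the 38.8% of all genes), with a median of 0.45. With cyclic loess 9 were higher and 3 lower, and with median centring 9 and 6. Skp2, which targets a brake on cyclin kinases for destruction, rose from 5.66 ± 0.204 (SD, n = 3) to 8.74 ± 0.141, 8.48-fold. E2f8, a repressive member of the E2F family, rose by 2.37, the S phase cyclin Ccna2 by 2.00 and the kinase subunit Cks1b by 1.61 (limma adjusted p = 1.71e-06, 2.97e-06 and 5.51e-07).

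Of 20 genes of nucleotide synthesis outside the members 2 rose (10%, beside 22.4% of all genes) and 9 fell (45%, beside 38.8%), with a median of -0.15 that was close to that of all genes. Rrm2b, the reductase subunit used outside S phase, fell by 1.14, the folate enzyme Mthfd2 by 0.65 and the mitochondrial kinase Dguok by 0.70, while Samhd1, which breaks down deoxynucleotides, rose by 0.50. With cyclic loess 6 of the 20 were higher and 5 lower (median 0.04), and with median centring 1 and 13 (median -0.32). In the list of replication checkpoint and fork repair genes 9 of 17 rose (52.9%, beside 22.4% of all genes). In that list 5 fell (29.4%, beside 38.8%), and the median was 0.24. Rad51ap1 was up by 1.79, Fanca up by 1.52, Exo1 at least 2.18-fold higher and the clamp subunit Rad1 down by 0.81. The counts were 8 and 6 with median centring (median 0.08) and 11 and 4 with cyclic loess (median 0.41). Of 9 genes of histone supply and maintenance methylation 6 rose (66.7%, beside 22.4% of all genes). In that list 2 fell (22.2%, beside 38.8%), and the median was 0.24. The remodeller Hells was up by 1.29, the maintenance methyltransferase Dnmt1 up by 0.35, and the histone chaperones Asf1b up by 0.82 and Asf1a down by 0.87. The counts were 4 and 3 with median centring (median 0.08) and 6 and 1 with cyclic loess (median 0.41).

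Nearly all mitosis genes were higher. Of 25 measured 24 rose (96%, beside 22.4% of all genes) and none fell, beside 38.8% of all genes. The rise was at least 2-fold in 22, beside 9.04% of all genes, and the median was 1.66. The replication genes had 10 of 41 at least 2-fold, or 9 with group means inside the background range set to its top, and a median of 0.38. In 4 of the mitosis genes the wild type mean lay inside that range, and the mitosis median was 1.61 when it was set to the top. Birc5, Aurka, Aurkb and Top2a rose by 2.07, 2.02, 2.33 and 2.26. The difference between the lists was not tested.

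**Figure D4:**
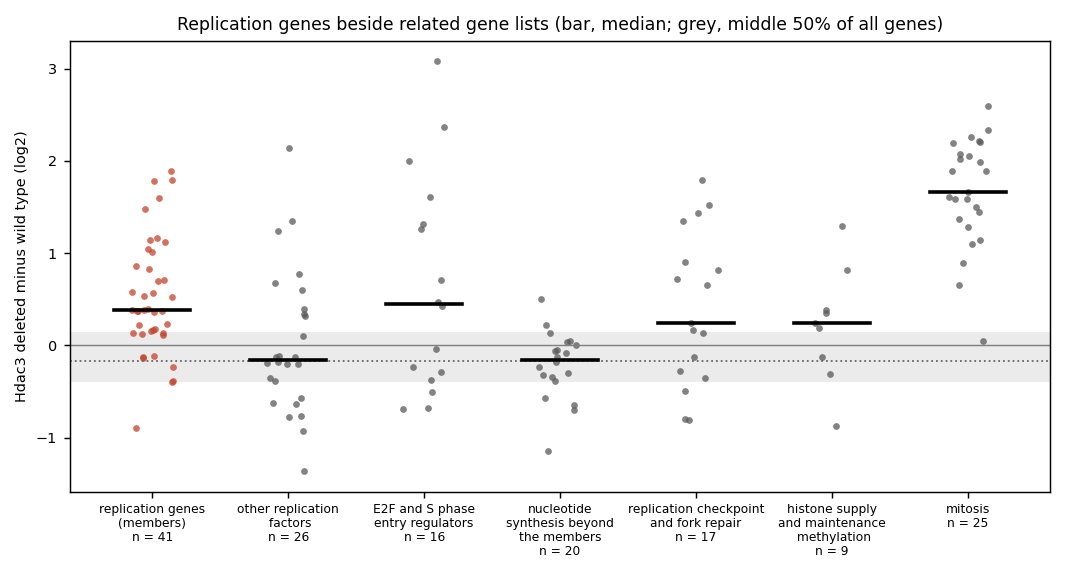
Difference (log2, Hdac3 deleted minus wild type) of each gene in the replication list and in 6 related lists, with 1 point per gene and a bar at the median. The grey band is the middle 50% of all genes and the dotted line their median of -0.17. The mitosis genes sit around 1.66, above the replication genes at 0.38.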

How the data were processed

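RNA of 6 samples, 3 per group by sample title, was hybridised to Affymetrix arrays, and per the labels' design text the authors normalised them by robust multiarray average (RMA) with MAYDAY 2.12. The authors deposited 1 log2 value for each probe set and array, and the genome build is not given in the sources used here. RMA makes the arrays' probe intensities alike in distribution, which hides any change in total RNA. Arrays have no depth, and 3 per group limits the precision.

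Of 22690 probe sets, 64 control sets were left out. Of the remaining 22626, 20380 had 1 symbol, 691 several and 1555 none, and 20351 matched the RefSeq gene table by Entrez identifier. Group differences come from limma 3.58.1 (R 4.3.3; moderated two-sided tests from lmFit and eBayes), Benjamini-Hochberg adjusted over the 12393 genes, at adjusted p 0.05 and, where stated, 2-fold, the authors' thresholds. The script was tested on simulated data. A group whose mean lay at or below 5.16 counts as background, and a fold against it is written as "at least". Motif and summary steps used Python 3.11.15 and pandas 2.3.3. All members, all CD3 and regulatory T cell markers and Hdac3 are named. From each other list at most the 4 genes with the smallest p were named, and for some lists not all of them. Other observations names further genes of the lists. Members and lists were chosen with earlier results of these data known. Alternatives were the methods' t-test, a replicate block, 3 scalings, array weights, a trended robust prior, a filter on dim probe sets, 2 other probe set rules, a 1.5-fold threshold and leaving out each sample.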

Additional observations from a re-analysis of the deposited data

How the results depend on the processing

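Of 650 comparisons of a member with its value under an alternative, 592 kept direction and call, 29 lost the call and 18 gained it, and 24 members kept both under every alternative. The other 11 changed sign, 8 of them in members called on neither side: Mcm6, Prim2, Pold1 and Chaf1b turned negative with median centring, Pold2, Rfc3 and Rfc4 positive with cyclic loess, and Rfc4 positive with the mean of its probe sets. The replicate numbers did not pair the samples (correlations of deviations between same-numbered samples of 0.089, 0.065 and -0.201). Blocking on the replicate number left 27 members higher, beside 21.2% of all genes, and Mcm4 (adjusted p = 0.0514) and Rpa2 (0.0824) lost their call. Without probe sets that may match several transcripts 23 of 37 members were higher and 7 lower. Of the 10529 genes then measured 20.7% were higher and 37.9% lower. Under this filter Mcm10 (-0.29) and Dut (-0.55) changed direction and were called lower. With the mean of its probe sets Dut (-0.19) changed direction and was called lower as well. With median centring 24 members were higher, 6 of them at least 2-fold, and 1 (Rpa3) was at least 2-fold lower. Over all genes 7229 were then lower, 867 of them at least 2-fold, in place of 4809 and 553. With cyclic loess 34 members were higher and 2 lower, with 2912 genes lower and 352 at least 2-fold lower. At a 1.5-fold threshold 14 members were higher and 1 lower, with 1687 genes higher and 1702 lower. Leaving out each sample in turn gave 25 to 28 members higher, 9 to 10 of them 2-fold, and 4 lower. Of all genes 20.5% to 21.4% were then higher and 34.4% to 36.9% lower. The causes of these shifts were not tested. Signal close to background limits Orc1, Tyms, Ccne2, Mcm10 and Cdc45.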

Other observations

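Subunits of the same replication complex differed in direction, in genes chosen here after their values were seen. Of the origin recognition complex, Orc3, Orc4 and Orc5, which are not among the members, fell by 0.35, 0.76 and 0.63 (limma adjusted p = 0.00163, 0.000318 and 0.000195), as Orc2 did by 0.40, while Orc6 rose by 0.37. The direction of all of these was the same with median centring and with cyclic loess, where Orc3 (-0.17, adjusted p = 0.0634) and Orc2 were not called. Of the GINS complex, a part of the active helicase, Gins1 rose by 1.35 and Gins4 fell by 0.78, with values of 1.52 and -0.60 under cyclic loess. Of polymerase epsilon, Pole rose by 1.01, and the other subunits Pole2, Pole3 and Pole4 differed by -0.18, 0.32 and -1.36. Pole2 was not called with cyclic loess (-0.00), nor was Pole3 with median centring (0.16). The small subunit of the reductase used in S phase, Rrm2, rose by 1.89 and its counterpart Rrm2b fell by 1.14.

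Dna2, a nuclease that acts on long flaps of Okazaki fragments and is not among the members, rose from 5.81 ± 0.253 (SD, n = 3) to 7.94 ± 0.175. That is 4.4-fold (limma adjusted p = 1.65e-05), more than the 1.62-fold of Fen1. In the promoter windows the CCAAT box was present in 19 of 23 mitosis genes (82.6%) and in 24 of 37 replication members (64.9%). The E2F motif was present in 2 of 23 (8.7%) and 8 of 37 (21.6%).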
